A study of Homo sapiens with 6 samples.

Results

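The 38 genes examined here were p53 regulators and direct p53 target genes, taken as the rows of the FPKM table whose Ensembl identifier carried a listed symbol. Of the 29483 genes in the table, 37 matched a listed symbol, and *SPATA18* was not analysed here. A mean FPKM of at least 0.5, the minimum used for testing, was reached by 35 of the 37 genes. The RNA came from HK-2 cells, an established human line of proximal tubular epithelium, in 6 libraries. All replicates were first kept in 25 mM high D-glucose (HG) medium for 7 days. The 3 case replicates then received 10 μM TEPP-46 for 1 more day, still in HG, and the 3 control replicates did not. TEPP-46 is a small molecule that activates the glycolytic enzyme PKM2 by favouring its tetramer. There was no group in normal glucose, so that every value below is of HG-exposed cells with or without TEPP-46, in a single cell line. The study calls the replicates independent and separately treated, without saying how they were grown apart, so the P-values measure the spread between these samples of one line.

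The p53 protein is a transcription factor that stressed or DNA-damaged cells accumulate. It binds paired copies of a short palindromic half-site and raises genes that halt the cell cycle, repair DNA, sensitise cells to death signals, or adjust metabolism, and also genes such as *MDM2* whose products remove p53 again. Many of the same genes also answer to other factors, among them the stress factors ATF4 and CHOP. HK-2 cells were immortalised with the E6 and E7 genes of a papillomavirus, and E6 directs p53 to degradation. The libraries measured RNA and hold no measurement of the p53 protein.

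The depth recovered from the FPKM values was 18634891, 17924033, and 17378710 reads in control replicates 1, 2, and 3. It was 16711934, 16047243, and 15363254 reads in case replicates 1, 2, and 3, so that all case libraries were shallower than all control libraries. A principal component analysis separated the groups on its leading axis (37.2% of the variance), where the control replicates lay at -22.9, -27.8, and -23.7. Case replicates 1 and 3 lay at 30.5 and 34.4 on the opposite side, and case replicate 2 stood apart from them at 9.54. For the listed p53 regulators and targets, results below are therefore also given without case replicate 2 where its absence changed a call. For the further gene lists, the counts without it are given. In the paper's read statistics, control replicate 3 and case replicate 1 had a higher share of adapter reads than the other libraries. The bearing of this on the values was not tested.

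The epithelial keratins were abundant in every library. *KRT19*, a keratin of simple epithelia, was at 358, 345, and 352 FPKM in the control group and at 384, 300, and 336 FPKM in the case group. *CDH1*, which encodes E-cadherin, was much lower, at 3.34, 3.50, and 3.40 FPKM in the control group and 1.83, 2.32, and 2.00 FPKM in the case group, a downregulation with a log2 fold change of -0.64 (adjusted P = 0.0156). Markers of differentiated proximal tubule were at or near 0: *LRP2* was above 0 in 1 library only (0.00686 FPKM), and *CUBN*, *SLC5A2*, *SLC34A1*, *AQP1*, *ANPEP*, and *GGT1* stayed below 0.5 FPKM on average. Of 13 markers of immune, endothelial, stromal, and other nephron cells, 9 had a row, and their FPKM summed to 0.616, 0.457, and 0.485 in the control group and 0.259, 0.359, and 0.512 in the case group, with *COL1A1* the most abundant. In bulk RNA, fewer cells of a type and less RNA per cell cannot be told apart.

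Of the 35 tested p53 regulators and targets, 12 were upregulated and 3 were downregulated in the case group at an adjusted P of at most 0.05 (limma, Benjamini-Hochberg over all 13599 tested genes). That is 34.3% upregulated and 8.57% downregulated, beside 7.34% upregulated and 5.84% downregulated of all tested genes, where 13.2% were called in either direction. The median log2 fold change of the 35 genes was 0.21, and that of all tested genes was -0.00. The list was chosen with earlier results of these data known. It holds *BBC3*, *CDKN1A*, *DDB2*, *GADD45A*, *GADD45B*, *PERP*, *SESN2*, *SIAH1*, and *TP53I3*, which the paper had already reported as upregulated p53 pathway genes. The higher share and median are therefore not independent of those earlier results. Of the 10 growth arrest genes, 6 were upregulated. Among the feedback regulators, *SIAH1* was upregulated, and *MDM2*, *MDM4*, and *PPM1D* did not pass the test. Among the tested metabolic genes, *SESN2* was upregulated, and *TIGAR* and *FDXR* did not pass. After scaling, all 3 case replicates lay above all 3 control replicates in 18 genes and below them in 6, and the groups overlapped in 11. Over all tested genes, 39.9% did not overlap, 19.5% with the case group higher and 20.4% with it lower.

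The split of the called genes into higher and lower depended on the scaling between libraries. With TPM, the median log2 fold change of all tested genes was -0.20, and 381 genes were called higher and 2383 lower, in place of 998 and 794 (2.8% and 17.5% of the tested genes, 20.3% in all). On that scale, 9 of the 35 genes were upregulated and 6 downregulated, with a median of 0.01. Without scaling, 662 genes were called higher and 1124 lower (4.87% and 8.27%, 13.1% in all), and the 35 genes gave 9 and 3. The median of the 35 genes exceeded that of all tested genes by 0.21 in the main scaling, by 0.21 with TPM, by 0.20 without scaling, and by 0.18 with quantile normalization.

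**Figure D1:**
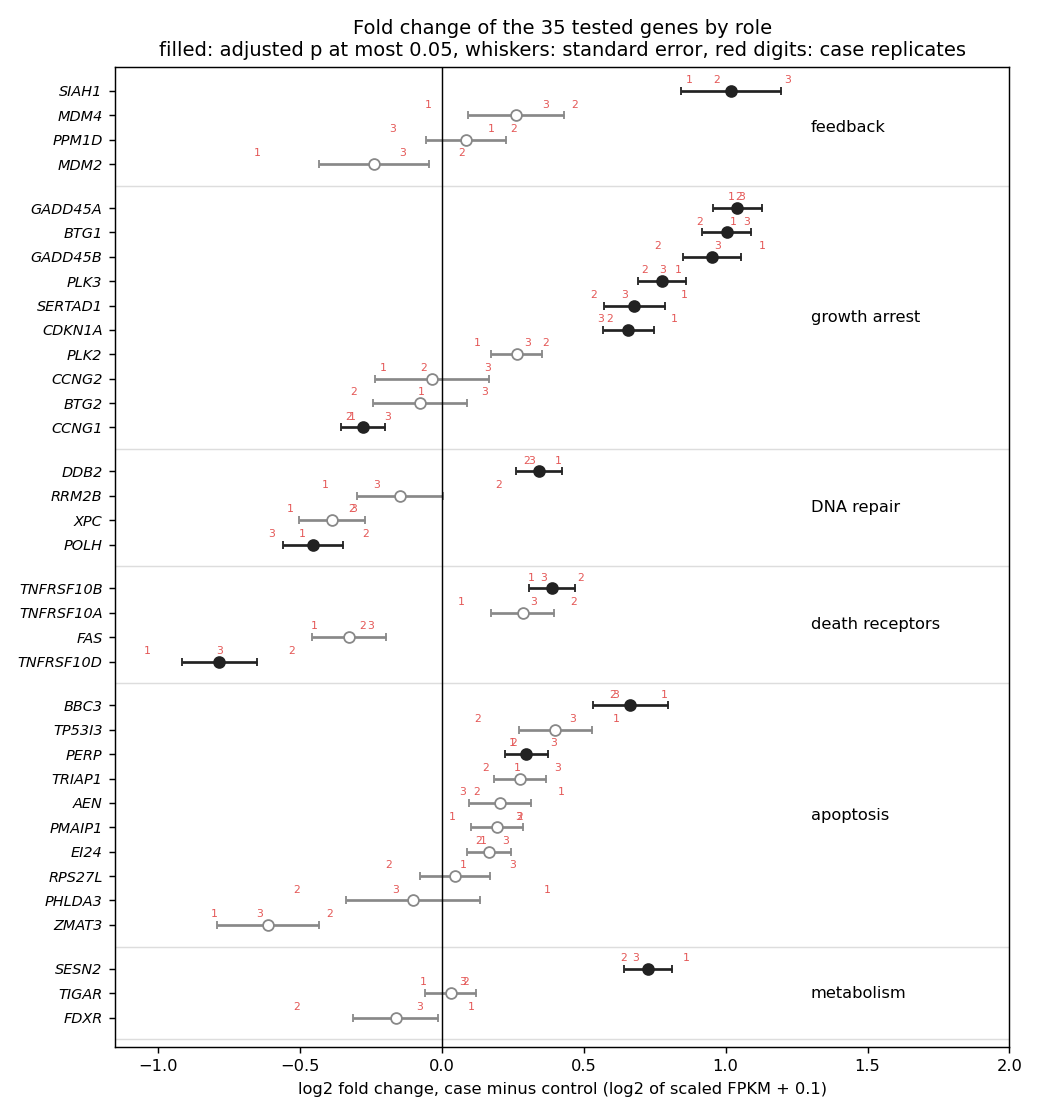
Log2 fold change, case minus control, of the 35 tested genes grouped by role (x axis, log2 of scaled FPKM + 0.1), with standard errors as whiskers and filled points where the adjusted P was at most 0.05. Small digits give each case replicate against the control mean. The 12 filled points on the right include 6 growth arrest genes, and the 3 filled points on the left are *CCNG1*, *POLH*, and *TNFRSF10D*.

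The genome sequence within 5000 bases on either side of the gene start was searched for the p53 consensus, 2 adjoining half-sites of 10 bases with the C and G of each 4-base core required, in the 29 tested genes that had an entry in the RefSeq promoter table. A window with at most 2 mismatches was found for 12 of the 29 genes (41.4%), beside 7.56% of the 9766 genes searched in the same way. The match is one of letters, and binding was not measured. The closest match of each of the 12 genes is shown because they show which of the searched genes, 5 of them called and 7 not, carry a consensus-like element near their start. Sequences are from hg38, read 5′ to 3′ on the strand of the gene, and capitals mark the 4-base cores.
PLK2: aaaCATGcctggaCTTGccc
ZMAT3: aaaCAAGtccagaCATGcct
CCNG1: gcaCAAGcccaggCTAGtcc
DDB2: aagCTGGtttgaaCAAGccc
PERP: aggCAAGctccagCTTGttc
AEN: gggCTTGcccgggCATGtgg
BTG2: acgCATGttcaggCATGcat
CDKN1A: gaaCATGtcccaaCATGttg
FAS: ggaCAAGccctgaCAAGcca
GADD45B: agaCTTGgttgaaCTTGgtt
MDM2: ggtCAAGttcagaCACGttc
PMAIP1: gggCTTGtttaccCAAGtct

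The *PLK2* and *ZMAT3* windows had no mismatch to the consensus. The *PLK2* window lies at chr5:58462274-58462293 on the minus strand, 2207 bases upstream of the start and outside the gene, and the *ZMAT3* window at chr3:179070188-179070207 on the minus strand, 1602 bases into the gene, in an intron. Neither gene was called. Windows with 1 mismatch were those of *CCNG1* (chr5:163437926-163437945, plus strand, intron), *DDB2* (chr11:47214969-47214988, plus strand, exonic UTR), and *PERP* (chr6:138104070-138104089, minus strand, intron). These 3 genes were called, *CCNG1* as downregulated and the others as upregulated.

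Windows with 2 mismatches belonged to 7 genes. That of *CDKN1A* lies at chr6:36676449-36676468 (plus strand), 2265 bases upstream of the RefSeq start used, and straddles the annotated start of the gene, with its last bases in a UTR exon of a longer transcript. The *GADD45B* window lies at chr19:2478021-2478040 (plus strand) in a UTR exon, and the *FAS* window at chr10:88991309-88991328 (plus strand) in an exon annotated as coding in some transcript. In *MDM2* the window lies in an intron, at chr12:68808923-68808942 (plus strand), 751 bases past the start. Those of *AEN* (chr15:88621306-88621325, plus strand), *BTG2* (chr1:203303642-203303661, plus strand), and *PMAIP1* (chr18:59899549-59899568, plus strand) lie outside the genes, 34, 1877, and 447 bases upstream.

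The fold changes were set beside the closeness of the best window. Among the 12 genes with at most 2 mismatches, 4 were upregulated, 1 was downregulated, and the median log2 fold change was 0.20, where 7.86% and 7.45% of all 738 genes with such a window were called higher and lower. Among the 17 genes with 3 or more mismatches, 6 were upregulated, 1 was downregulated, and the median was 0.26, where the shares of all 9028 such genes were 7.76% and 6.15%. The upregulated genes *BTG1*, *PLK3*, *SERTAD1*, and *SIAH1* had at least 4 mismatches in the best window, and *SESN2* and *BBC3* had 3.

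**Figure D2:**
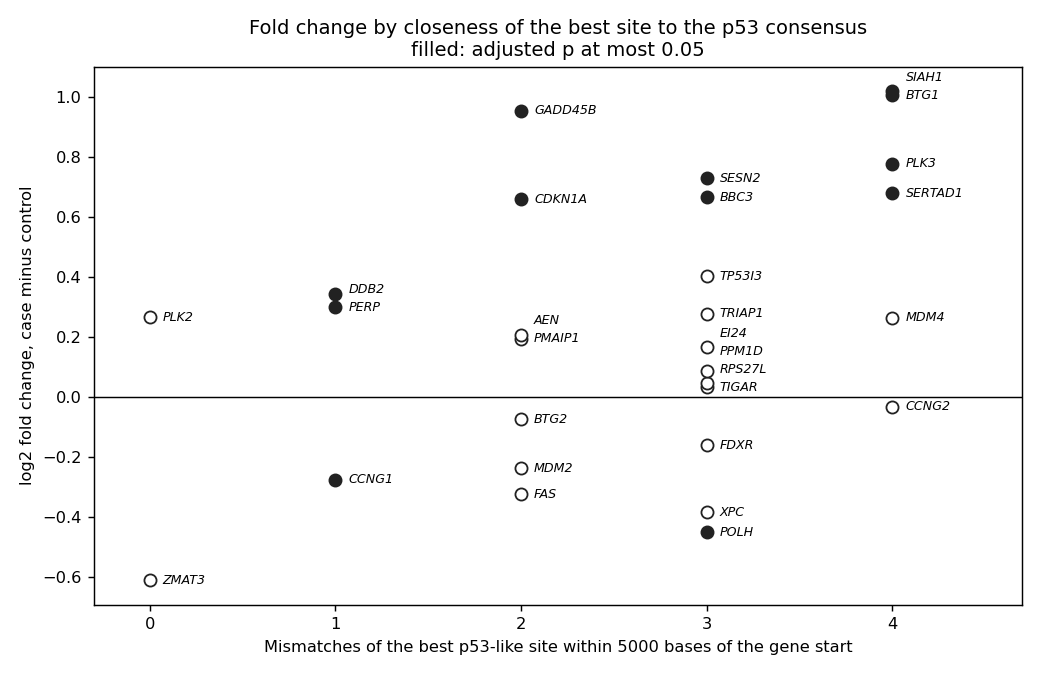
Log2 fold change, case minus control (y axis), of 29 genes against the mismatches of the best p53-like window within 5000 bases of the gene start (x axis), with filled points where the adjusted P was at most 0.05. Filled points above 0 occur at 1, 2, 3, and 4 mismatches, and the 2 genes with a perfect window, *PLK2* and *ZMAT3*, lie on opposite sides of 0 and are open.

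For the 3 upregulated genes with the smallest adjusted P among those without a close p53-like window, the 250 bases upstream of the RefSeq start are given (GRCh38.p14), since other stress-response letters were searched there. The searched letters were TTNCATCA (ATF4-type), TGANTCA (AP-1), TGACGTCA (CRE), CCAAT, and TATAAA, on both strands, and capitals mark the matches. The sequences are on the strand of each gene.
BTG1, chr12:92145847-92146096, minus strand: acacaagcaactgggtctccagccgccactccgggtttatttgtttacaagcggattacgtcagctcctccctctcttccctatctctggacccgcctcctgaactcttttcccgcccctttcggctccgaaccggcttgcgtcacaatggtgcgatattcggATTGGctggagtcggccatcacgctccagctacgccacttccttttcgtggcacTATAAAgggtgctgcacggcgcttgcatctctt
PLK3, chr1:44800127-44800376, plus strand: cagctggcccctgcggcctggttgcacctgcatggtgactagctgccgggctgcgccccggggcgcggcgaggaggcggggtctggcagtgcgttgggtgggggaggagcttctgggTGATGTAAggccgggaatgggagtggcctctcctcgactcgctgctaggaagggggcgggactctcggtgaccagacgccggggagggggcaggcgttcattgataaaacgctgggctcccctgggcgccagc
SESN2, chr1:28259268-28259517, plus strand: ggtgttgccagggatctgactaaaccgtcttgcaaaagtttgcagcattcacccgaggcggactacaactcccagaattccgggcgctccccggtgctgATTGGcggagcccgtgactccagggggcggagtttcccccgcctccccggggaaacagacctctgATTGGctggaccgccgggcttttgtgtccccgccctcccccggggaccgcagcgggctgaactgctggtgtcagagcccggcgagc

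The *PLK3* promoter held the ATF4-type letters once, 133 bases upstream of the start, and 1.29% of the 9766 promoters of the same length held them. It was the only match to these letters among the 29 promoters of the tested genes. The *BTG1* promoter held TATAAA 33 bases upstream, found in 4.96% of promoters and otherwise in *GADD45B* among the 29. CCAAT stood 87 bases upstream in *BTG1* and 151 and 86 bases upstream in *SESN2*, and 34.9% of all promoters and 13 of the 29 held it. The AP-1 letters occurred in *BBC3*, *FAS*, and *PERP* (3.65% of promoters) and the CRE letters in *PPM1D* (3.09%). A match is a description of the sequence only.

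Growth arrest was the role with the most raised genes. *GADD45A* and *GADD45B*, small stress-inducible proteins that restrain the cell cycle and feed into MAP kinase signalling, roughly doubled, as did *BTG1*, an antiproliferative partner of the mRNA deadenylase complex. *CDKN1A*, which encodes the cyclin-dependent kinase inhibitor p21, *PLK3*, a stress-responsive polo-like kinase, and *SERTAD1*, a binding partner of CDK4, rose by 1.58 to 1.71 times. *CCNG1*, an atypical cyclin that acts on MDM2, fell. The median log2 fold change of the 10 genes was 0.67.

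*GADD45A* (chr1:67685201-67688334, plus strand) was at 23.9, 21.4, and 25.8 FPKM in control replicates 1 to 3 and at 43.8, 47.9, and 46.9 FPKM in the case replicates, from 794 to 1590 reads per library. Every case replicate lay far above every control replicate. Its log2 fold change was 1.04 (SE 0.0861, adjusted P = 0.00197), the largest of the 35 genes. In the paper's qRT-PCR, run on cells cultured and treated anew, *GADD45A* went the other way and was lower with TEPP-46. *GADD45B* (chr19:2476122-2478259, plus strand) was at 37.8, 35.3, and 37.3 FPKM in the control group and 73.6, 61.0, and 68.8 FPKM in the case group, the highest mean over the 6 libraries among the 35 genes. The groups did not overlap, and the log2 fold change was 0.95 (SE 0.102, adjusted P = 0.00477).

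*BTG1* (chr12:92140278-92145846, minus strand) was at 7.52, 6.91, and 7.05 FPKM in the control group and at 13.4, 13.2, and 14.5 FPKM in the case group. The case replicates were close to one another and clear of the control group, with a log2 fold change of 1.00 (SE 0.0857, adjusted P = 0.00197). In the annotation, 16.0% of the exon bases of *BTG1* also belong to its divergent transcript or to *LINC01619*, and since the strandedness of the libraries is not given in the sources used here, reads of these genes cannot be told apart there. Its paralog *BTG2* was lower and showed no such change, at 3.00, 3.16, and 2.32 FPKM in the control group and 2.43, 2.19, and 2.97 FPKM in the case group. The *BTG2* groups overlapped (log2 fold change -0.08, adjusted P = 0.782).

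*CDKN1A* (chr6:36676460-36687337, plus strand) was abundant in both groups, at 40.9, 38.4, and 39.98 FPKM in the control group and 64.2, 58.7, and 55.9 FPKM in the case group. All case values exceeded all control values, and the log2 fold change was 0.66 (SE 0.0898, adjusted P = 0.0101). *PLK3* (chr1:44800377-44805990, plus strand) had replicates close to one another, at 4.27, 4.23, and 4.23 FPKM against 6.98, 6.90, and 7.02 FPKM. The groups were far apart relative to their spread, with a log2 fold change of 0.78 (SE 0.0835, adjusted P = 0.00477). *SERTAD1* (chr19:40421589-40425992, minus strand) was at 12.5, 10.9, and 11.0 FPKM in the control group and 19.0, 16.3, and 17.1 FPKM in the case group, without overlap (log2 fold change 0.68, SE 0.108, adjusted P = 0.0140).

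*CCNG1* (chr5:163437569-163446151, plus strand) went the other way, from 36.2, 36.8, and 38.9 FPKM to 27.4, 29.1, and 31.1 FPKM. The case group lay wholly below the control group, and the log2 fold change was -0.28 (SE 0.0760, adjusted P = 0.0496), just inside the threshold. It lost its call when any 1 of the 6 replicates was left out, with an adjusted P of 0.0504 without case replicate 2 and 0.0509 without case replicate 1. *PLK2*, a polo-like kinase of centriole duplication with a perfect p53-like window, was at 13.7, 14.7, and 13.7 FPKM against 14.0, 17.7, and 16.5 FPKM. Its deposited values overlapped, and it was not called (log2 fold change 0.26, adjusted P = 0.0874), although it was without case replicate 1 (adjusted P = 0.0251). *CCNG2*, a cyclin raised by FOXO factors in resting cells, was at 0.904, 1.32, and 1.13 FPKM against 0.864, 1.03, and 1.19 FPKM, with overlapping groups (adjusted P = 0.923).

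**Figure D3:**
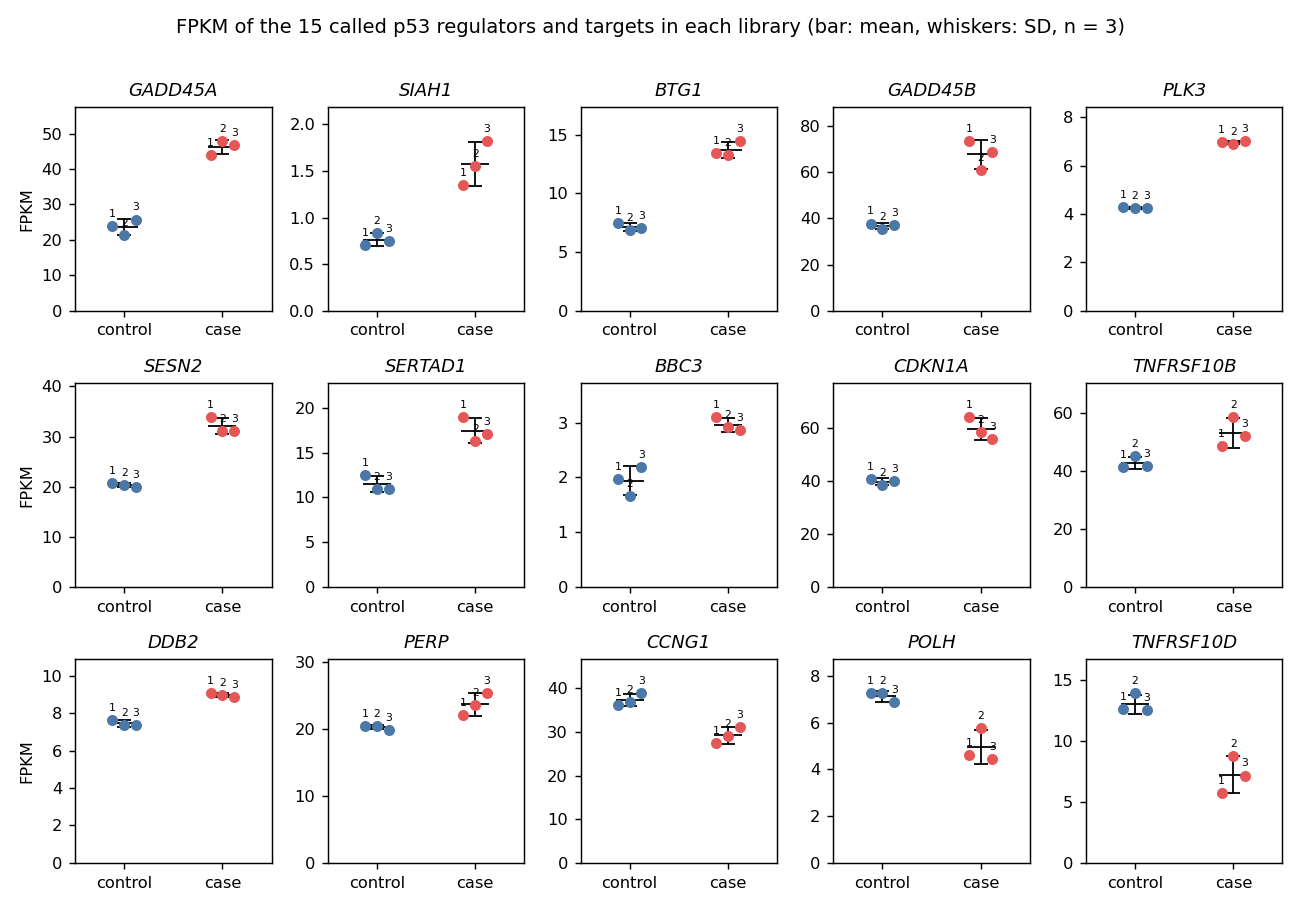
FPKM (y axis, from 0) of the 15 called genes in each of the 3 control and 3 case libraries, with the replicate number above each point, the group mean as a bar, and the SD as whiskers. In each panel the 3 case points lie on one side of the 3 control points, above them in 12 genes and below them in *CCNG1*, *POLH*, and *TNFRSF10D*, and case replicate 2 is the nearest to the control group in the last 2.

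Among the feedback regulators, *SIAH1* alone was called. *SIAH1* (chr16:48356364-48448402, minus strand) encodes a ubiquitin ligase. It was lowly expressed, at 0.702, 0.838, and 0.753 FPKM in the control group and 1.35, 1.56, and 1.82 FPKM in the case group, on 88 to 188 reads per library. The case replicates were all higher, with a log2 fold change of 1.02 (SE 0.176, adjusted P = 0.0161). Of its exon bases, 31.4% are shared with *LONP2* on the opposite strand or with an unnamed gene, so that part of these reads may belong to them. Besides *BTG1*, the same limit holds at smaller shares for *XPC* (24.6%), *TIGAR* (19.4%), *PHLDA3* (18.4%), *TNFRSF10A* (16.7%), and *MDM2* (14.7%), among others.

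*MDM2*, the main ubiquitin ligase of p53 and itself a p53 target, did not rise. It was at 2.08, 2.06, and 1.895 FPKM in the control group and 1.14, 2.07, and 1.73 FPKM in the case group, so that case replicate 1 was low and case replicate 2 equal to the control group. Its log2 fold change was -0.24 (SE 0.193, adjusted P = 0.421). *MDM4*, which binds p53 and blocks its activity, was at 1.58, 1.89, and 1.92 FPKM against 1.58, 2.46, and 2.23 FPKM, with overlapping groups (log2 fold change 0.26, adjusted P = 0.309). *PPM1D*, a phosphatase that removes activating phosphates from p53 and its kinases, ranged from 2.42 to 2.75 FPKM in the control group and from 2.18 to 3.05 FPKM in the case group (log2 fold change 0.09, adjusted P = 0.706).

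The DNA repair genes were split. *DDB2*, which recognises ultraviolet lesions in chromatin, was upregulated, whereas *POLH*, the translesion polymerase eta that copies past such lesions, was downregulated. *DDB2* (chr11:47214465-47239217, plus strand) was at 7.64, 7.34, and 7.36 FPKM in the control group and 9.07, 8.98, and 8.85 FPKM in the case group. The shift was small but the replicates were tight and the groups separate (log2 fold change 0.34, SE 0.0804, adjusted P = 0.0331). *POLH* (chr6:43576185-43620523, plus strand) was at 7.26, 7.25, and 6.86 FPKM against 4.60, 5.77, and 4.45 FPKM. The case group lay below the control group, with case replicate 2 the least reduced (log2 fold change -0.45, SE 0.107, adjusted P = 0.0331).

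*XPC*, the damage sensor of nucleotide excision repair, lay outside the threshold at 3.09, 2.79, and 3.09 FPKM against 1.86, 2.32, and 2.28 FPKM. All case values were lower, and the adjusted P was 0.0632 (log2 fold change -0.39). Without case replicate 2, *XPC* was called at -0.42, with an adjusted P of 0.0472, and with TPM its adjusted P was 0.0262. *RRM2B*, the p53-inducible subunit of ribonucleotide reductase, was at 6.28, 6.003, and 6.24 FPKM in the control group and at 4.22, 6.96, and 5.00 FPKM in the case group. Its case replicates were spread on both sides of the control group (log2 fold change -0.15, adjusted P = 0.534), and without case replicate 2 it was called as downregulated at -0.32 (adjusted P = 0.0479).

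The 4 death receptor genes did not move together. *TNFRSF10B*, a receptor that passes the TRAIL ligand's death signal, was upregulated, and *TNFRSF10D*, a decoy receptor of the same ligand with a truncated death domain, was downregulated. *TNFRSF10B* (chr8:23020133-23069031, minus strand) was at 41.5, 45.2, and 41.6 FPKM in the control group and 48.6, 58.8, and 52.2 FPKM in the case group. The groups were apart, with a log2 fold change of 0.39 (SE 0.0804, adjusted P = 0.0238). *TNFRSF10D* (chr8:23135588-23164027, minus strand) was at 12.6, 13.9, and 12.5 FPKM in the control group and fell to 5.73, 8.77, and 7.16 FPKM in the case group. Case replicate 1 was the lowest and case replicate 2 the highest of the case group, and all were below the control group (log2 fold change -0.78, SE 0.132, adjusted P = 0.0150).

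*TNFRSF10A*, the other TRAIL death receptor, was at 10.5, 11.4, and 10.8 FPKM against 10.5, 14.8, and 13.1 FPKM. As deposited, case replicate 1 lay just below the control group and the others above it, and the gene was not called (log2 fold change 0.29, adjusted P = 0.121). It was called without case replicate 1 (adjusted P = 0.0227). *FAS*, the receptor of Fas ligand, was at 2.93, 3.38, and 2.64 FPKM against 1.96, 2.38, and 2.36 FPKM. Its case values were all lower without passing the test (log2 fold change -0.33, adjusted P = 0.123), and it was called with TPM (adjusted P = 0.0447). The TRAIL receptor genes are similar in sequence and neighbours on chromosome 8. How the counting treated reads that match more than 1 of them is not given in the sources used here.

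Of the 10 tested apoptosis genes, *BBC3* and *PERP* were upregulated. *BBC3* (chr19:47220822-47232766, minus strand) encodes PUMA, a BH3-only protein that opposes the survival proteins of the BCL2 family. It was at 1.97, 1.67, and 2.19 FPKM in the control group and 3.10, 2.92, and 2.87 FPKM in the case group, on 95 to 165 reads per library. The groups were separate, with a log2 fold change of 0.67 (SE 0.133, adjusted P = 0.0224). *PMAIP1*, which encodes the BH3-only protein NOXA, was more abundant in FPKM, at 30.3, 30.4, and 33.3 FPKM against 29.3, 37.1, and 36.0 FPKM. Its case replicates lay on both sides of the control group (log2 fold change 0.19, adjusted P = 0.182), and it was called without case replicate 1 (adjusted P = 0.0383).

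*PERP* (chr6:138088505-138107419, minus strand), a membrane protein of desmosomes, was at 20.4, 20.4, and 19.9 FPKM against 22.0, 23.6, and 25.3 FPKM. The case group was higher by a small margin (log2 fold change 0.30, SE 0.0769, adjusted P = 0.0425). *ZMAT3*, an RNA-binding zinc finger protein, missed the threshold on the other side, at 1.47, 1.63, and 1.95 FPKM against 0.837, 1.22, and 0.985 FPKM. No case value reached the control group (log2 fold change -0.61, SE 0.179, adjusted P = 0.0579), and the gene was called without case replicate 2 (adjusted P = 0.0292), with TPM (adjusted P = 0.0321), and by voom on recovered reads (adjusted P = 0.0126). It was the gene closest to the threshold on the outside, and *CCNG1* was the closest on the inside.

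The quinone oxidoreductase gene *TP53I3* was at 10.5, 9.89, and 9.71 FPKM against 14.1, 10.7, and 13.2 FPKM, higher in all case replicates but only slightly in case replicate 2 (log2 fold change 0.40, adjusted P = 0.0723). *TRIAP1*, a mitochondrial lipid transfer partner, was at 29.6, 26.5, and 28.2 FPKM against 30.9, 30.6, and 35.5 FPKM (log2 fold change 0.28, adjusted P = 0.0797). Without case replicate 2 both were called, with adjusted P of 0.0105 and 0.0312, and voom called *TP53I3* (adjusted P = 0.0467). *AEN*, *EI24*, *RPS27L*, and *PHLDA3* had log2 fold changes from -0.10 to 0.21 and were not called. *PHLDA3*, an inhibitor of AKT, had the largest standard error of the 35 genes (0.237), at 14.7, 12.7, and 20.1 FPKM in the control group and 18.4, 10.6, and 13.2 FPKM in the case group. *TP53INP1*, an autophagy and stress protein, was under the minimum for testing, at 0.529, 0.629, and 0.558 FPKM against 0.464, 0.406, and 0.241 FPKM.

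Among the metabolic genes, *SESN2* was upregulated. The sestrins respond to amino acid and oxidative stress and restrain the growth kinase mTORC1, and *SESN2* is also a known ATF4 target. *SESN2* (chr1:28259518-28282491, plus strand) was at 20.7, 20.4, and 19.9 FPKM in the control group and 33.9, 31.1, and 31.2 FPKM in the case group. The groups were far apart, with a log2 fold change of 0.73 (SE 0.0843, adjusted P = 0.00603). *SESN1* was under the minimum for testing, at 0.220, 0.305, and 0.416 FPKM against 0.479, 0.535, and 0.292 FPKM, on 21 to 44 reads, and its groups overlapped.

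*TIGAR*, which lowers fructose 2,6-bisphosphate and so slows glycolysis, was at 6.67, 7.01, and 6.46 FPKM against 5.85, 6.97, and 6.74 FPKM. The groups overlapped, with a log2 fold change of 0.03 (SE 0.0881, adjusted P = 0.834). *FDXR*, the mitochondrial ferredoxin reductase, was at 12.96, 12.7, and 13.7 FPKM against 12.9, 8.97, and 11.8 FPKM. Case replicate 2 was the low one, and the groups overlapped (log2 fold change -0.16, adjusted P = 0.486).

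Paralogs were compared by the difference of their log2 values in each sample, in 8 pairs with two-sided exact permutation tests, whose smallest P with 3 against 3 replicates is 0.1. *BTG1* rose relative to *BTG2* by 1.08 on the log2 scale (95% confidence interval 0.64 to 1.52), and *TNFRSF10B* relative to *TNFRSF10D* by 1.17 (0.90 to 1.44). *PLK2* changed by -0.51 relative to *PLK3* (-0.82 to -0.20), and *MDM2* by -0.50 relative to *MDM4* (-0.87 to -0.14). *TNFRSF10A* against *TNFRSF10B* gave -0.10 (-0.31 to 0.10). In these 5 pairs the groups did not overlap, and each exact P was 0.1 (0.16 after adjustment over the 8 pairs), so that none could pass the threshold. *GADD45A* and *GADD45B* differed by 0.09 (-0.26 to 0.44, exact P = 0.7), an interval that leaves room for differences in either direction. *CCNG1* against *CCNG2* gave -0.24 (-0.68 to 0.19), and *SESN1* against *SESN2* -0.30 (-1.13 to 0.53), both with overlapping groups.

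**Figure D4:**
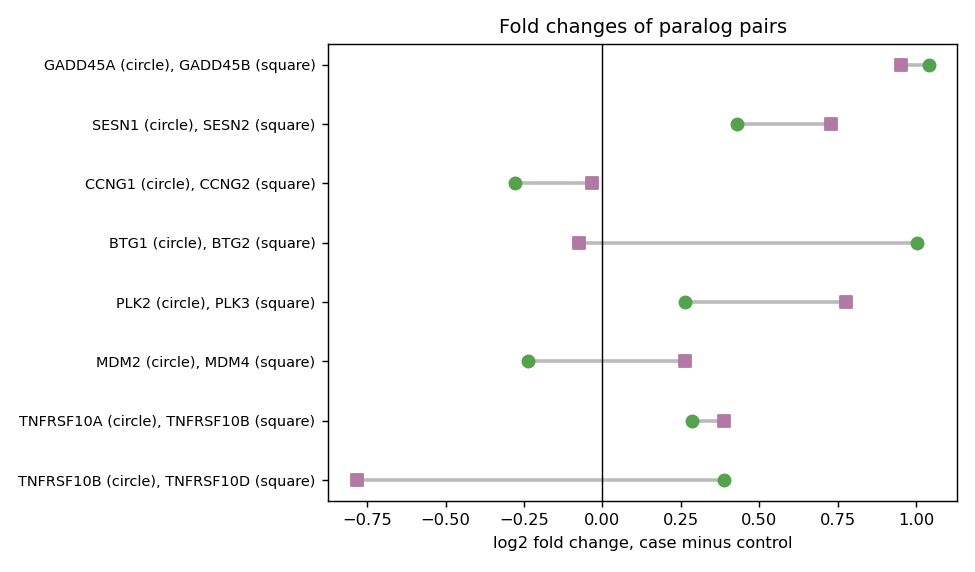
Log2 fold change, case minus control (x axis), of the first (circle) and second (square) gene of each of 8 paralog pairs, with a line joining the pair. The markers of *BTG1* and *BTG2* and of *TNFRSF10B* and *TNFRSF10D* are the farthest apart, and those of *GADD45A* and *GADD45B* nearly coincide at 1.04 and 0.95.

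The stability of the calls differed between genes, in settings that all drew on the same libraries. *GADD45A*, *GADD45B*, *BTG1*, *PLK3*, and *SESN2* were called under each of the 17 alternative settings run, and none of the 15 called genes changed direction under any of them. The other 10 called genes all lost their call when any 1 control replicate was left out, where between 69 and 105 genes were called in all, and 9 of them, *CDKN1A* excepted, when case replicate 3 was left out, where 192 genes were called. *DDB2*, *TNFRSF10B*, and *PERP*, whose fold changes were small, were also not called with TPM or without scaling. Without case replicate 2, 14 of the 35 genes were upregulated and 5 downregulated, with *CCNG1* lost, beside 13.4% and 12.4% of the 13575 genes then tested (25.7% in all). Without case replicate 1, 15 were upregulated and 2 downregulated, beside 8.92% and 7.86% of 13682 (16.8% in all).

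A wider list of p53 targets was examined in the same fit. Of 47 listed genes, 46 had a row and 41 were tested, of which 7 were upregulated (17.1%) and 1 was downregulated (2.44%), beside 7.34% and 5.84% of all tested genes, with a median log2 fold change of 0.07. The upregulated count was 2 with TPM, 1 without the intensity trend, 0 when any 1 control replicate was left out, and 1 without case replicate 3. Without control replicate 1, 2, and 3 and case replicate 3, 76, 55, 68, and 121 of all tested genes were called higher. Without case replicate 2, 10 of the wider targets were upregulated and 2 downregulated, beside 13.4% and 12.4% of all tested genes. *GDF15*, a stress-induced secreted factor that is also raised by CHOP, changed most, from 1.23, 1.12, and 1.38 FPKM to 2.70, 2.36, and 2.18 FPKM (log2 fold change 0.97, adjusted P = 0.0132). *NINJ1* (0.50), *PRKAB1* (0.43), *EPHA2* (0.41), and *LIF* (0.39) followed on the log2 scale, and *CES2* fell by 0.50.

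Of 20 genes that act upstream of p53, 4 were downregulated (20%) and 2 upregulated (10%), beside 5.84% and 7.34% of all tested genes, with a median log2 fold change of -0.18. The kinases *PRKDC* (-0.80), *HIPK2* (-0.75), and *ATR* (-0.70) and the adaptor *TP53BP1* (-0.58) were downregulated, and the ubiquitin ligase *COP1* (0.50) and the kinase *CHEK1* (0.34) were upregulated. *PRKDC* was at 20.2, 20.9, and 18.7 FPKM against 8.45, 14.1, and 10.6 FPKM, with case replicate 2 again the least reduced. Both upstream counts were 0 when any 1 control replicate or case replicate 3 was left out. Of all tested genes, 76, 55, 68, and 121 were then called higher and 29, 14, 19, and 71 lower. Without case replicate 2, 7 upstream genes were downregulated and 2 upregulated, beside 12.4% and 13.4% of all tested genes. TPM gave 7 and 0, beside 17.5% and 2.8%. The cell cycle genes that p21 represses through the DREAM complex were examined next. Of 27 tested, 3 were upregulated (*CCNB2* at 0.37, *BIRC5* at 0.33, and *AURKA* at 0.33), 1 was downregulated (*MKI67* at -0.81), and the median was 0.03. That is 14.8% called, beside 13.2% of all tested genes. With TPM, 0 were upregulated and 8 downregulated, beside 2.8% and 17.5% of all tested genes. Without case replicate 2, 6 were upregulated and 3 downregulated, beside 13.4% and 12.4%. Both DREAM counts were 0 when any 1 control replicate or case replicate 3 was left out.

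The list of ATF4, CHOP, and their targets was examined last. Of 16 tested genes, 12 were upregulated and 0 were downregulated (limma; voom also gave 0 lower, and 0 lower genes had an unadjusted P under 0.05), beside 7.34% higher and 5.84% lower of all tested genes, with a median log2 fold change of 0.60. The upregulated count was 7, 5, and 5 without control replicate 1, 2, and 3 and 6 without case replicate 3, beside 76, 55, 68, and 121 of all tested genes. *DDIT3*, which encodes CHOP, went from 14.7, 11.7, and 11.9 FPKM to 35.4, 34.2, and 42.0 FPKM (log2 fold change 1.62, adjusted P = 0.00152). *PPP1R15A* (1.48), *TRIB3* (1.03), *SLC3A2* (0.83), and *ASNS* (0.82) were next. The part of these factors in the change of *GADD45A*, *SESN2*, or the other upregulated genes was not tested.

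Genomic span differed between the called sets. The median genomic span was 11.4 kb for the 12 upregulated genes, 28.4 kb for the 3 downregulated genes, and 32.8 kb for the 20 genes that were not called. Over all tested genes, the median spans were 16.03 kb for the upregulated, 55.3 kb for the downregulated, and 26.2 kb for all tested. Median span thus differed with direction among all called genes as well. Its part in the changes described above was not tested.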

How the data were processed

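The libraries and groups are those given in the opening of the results. The deposited values are FPKM, which the authors made by aligning reads to GRCh38.p13 with HISAT2 2.1.0, counting them on genes with HTSeq 0.6.0, and dividing by gene length and library reads. Strandedness and annotation version are not given in the sources used here. FPKM were divided by median-of-ratios factors, transformed to log2 after adding 0.1, filtered at a mean FPKM of at least 0.5, and tested in R 4.3.3 by limma 3.58.1 with an intensity trend, with Benjamini-Hochberg adjustment over 13599 genes. Fold changes on this scale understate those of low genes. The script was tested on simulated data. Whole reads were recovered with annotation lengths (tolerance 0.01) for 12598 of 27922 genes above 0 and at another length for 13489, and 1835 were not resolved. Reads lacking molecular identifiers are not independent molecules.

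Symbols and positions are from GENCODE 44 on GRCh38, for 29063 of 29483 genes. Sequences are from hg38 and from the RefSeq promoter table of GRCh38.p14, which held 31 of the 38 listed genes, without *GADD45A* and *PHLDA3*. Sites were counted from the first listed start. The genes and lists were chosen with earlier results of these data known. All listed genes are reported, and from each further list at most 5 called genes per direction, by fold change. Alternatives were other pseudocounts, filters, scalings (TPM, quantile, none) and variance models, voom on recovered reads, the replicate number as a block, and leaving out each replicate. Beyond the points named above, comparisons with the study's own test results were not made.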

Additional observations from a re-analysis of the deposited data

How the results depend on the processing

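Of the 15 called p53 regulators and targets, 5 kept their call under all 17 alternatives and 10 lost it under at least 1. Pseudocounts of 1 and 0.01, a mean FPKM of at least 1, robust estimation, and voom kept all 15. Upregulated genes numbered 5 to 15 and downregulated genes 0 to 5 when 1 replicate was left out, against 12 and 3, while 55 to 1813 and 14 to 1682 of all tested genes were called higher and lower, and leaving an arm with 2 samples assumes that they vary like the rest. Downregulated genes numbered 1 without a filter, 6 with TPM, and 1 without the intensity trend. The replicate numbers do not pair the samples (correlations of deviations 0.06, 0.10, and -0.05), and samples with different numbers were not correlated. With the replicate block, 10 genes were upregulated and 2 downregulated, *CCNG1*, *DDB2*, and *PERP* losing their call (848 and 762 over all tested genes), and 3 of the wider targets and 1 upstream factor were upregulated and 2 DREAM genes downregulated.

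Against 998 higher and 794 lower of all tested genes, calls numbered 329 and 191 without a filter, 662 and 1124 unscaled, 381 and 2383 with TPM, 865 and 903 with quantile normalization, 436 and 416 without the trend, and 1304 and 1513 with voom. Upregulated wider targets numbered 2 without a filter, 4 unscaled, 2 with TPM, and 1 without the trend, and 0 to 10 with a replicate left out. Downregulated ones numbered 0 without a filter, 5 with TPM, 2 with quantile normalization, 0 without the trend, 3 with voom, and 0 to 4 with a replicate left out. Upregulated upstream factors numbered 0 without a filter, 1 unscaled, 0 with TPM, 0 without the trend, and 0 to 2 with a replicate left out. Downregulated ones numbered 0 without a filter, 7 with TPM, 1 without the trend, and 0 to 7 with a replicate left out. Upregulated DREAM genes numbered 0 with TPM, 1 with quantile normalization, 0 without the trend, 5 with voom, and 0 to 6 with a replicate left out. Downregulated DREAM genes numbered 0 without a filter, 3 unscaled, 8 with TPM, 3 with quantile normalization, 0 without the trend, 3 with voom, and 0 to 3 with a replicate left out. ATF4 and CHOP targets gave 5 to 12 upregulated with a replicate left out.

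Direction reversed in 9 genes that were not called. With TPM, the log2 fold change was -0.11 for *PPM1D*, -0.0059 for *PMAIP1*, -0.0323 for *EI24*, -0.15 for *RPS27L*, and -0.17 for *TIGAR*. Unscaled, it was -0.0294 for *RPS27L* and -0.0446 for *TIGAR*, and with quantile normalization 0.0153 for *CCNG2* and 0.0028 for *BTG2*. With a replicate left out, it ranged from -0.17 to 0.0806 for *CCNG2*, -0.21 to 0.0409 for *BTG2*, -0.33 to 0.11 for *PHLDA3*, -0.0524 to 0.16 for *RPS27L*, and -0.29 to 0.0140 for *FDXR*, and the *GADD45A* and *GADD45B* difference ranged from -0.0125 to 0.19. The cause was not tested.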
